A study of Mus musculus with 19 samples.

Results

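Pecam1, Cdh5, Esam, Tie1, Eng, Egfl7, Vwf, Emcn, Plvap and Ehd3 are genes by which endothelial cells, the cells that line blood vessels, are recognised in kidney tissue. They were chosen by name, as pan-endothelial and glomerular endothelial genes, and are 10 of the 55536 genes in the count table. Whole kidneys of mice were profiled by RNA sequencing, with 19 libraries in all. By the design these were 4 healthy kidneys, 7 kidneys from a UUO model given vehicle and 8 from the same model given zalfermin. UUO commonly stands for unilateral ureteral obstruction, in which 1 ureter is tied and the kidney above it becomes inflamed and scarred, and the obstructed kidneys of either treatment share that injury. Zalfermin is, by the series title, a long-acting analogue of FGF21, a hormone of energy metabolism. The labels differ from the design on some points. For the 15 obstructed libraries they state MASH, a fatty liver disease, as the condition. Healthy libraries are untreated by label and vehicle by design, and the labels give the drug as a code, which is read here as zalfermin. The sources used here do not give strain, sex, age, dose, route or the time of obstruction or treatment. Nothing in the labels ties each library to an animal of its own, so the p-values cover the spread among these libraries, which may be technical.

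The kidney holds several kinds of endothelium. Glomerular capillaries are fenestrated and lie against podocytes, peritubular capillaries surround the tubules, and arteries, veins and lymphatics have their own programmes. Genes such as Pecam1 and Cdh5 are shared by nearly all of these cells, whereas Ehd3 is known in the kidney as a gene of the glomerular endothelium. In a whole-kidney library a gene's level is a share of the RNA of every cell type present, so fewer cells of a type and less RNA per cell cannot be told apart.

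Libraries held 12209122 to 14844103 counts. Levels are given as CPM, the count relative to the TMM-scaled total of its library, and a mean carries the SD over the libraries of its group (n = 4 healthy, 7 vehicle, 8 zalfermin). All 10 genes passed the filter on low counts, with 49 to 3624 counts per library, beside 16026 of all genes. The scaling factors were 0.751 to 0.843 in healthy and 1.02 to 1.11 in obstructed libraries. The kidney's own markers were present in every group: 8 proximal tubule genes summed to 35440 to 49435 CPM in healthy, 7131 to 12960 CPM in vehicle and 5004 to 10130 CPM in zalfermin libraries. Vehicle replicate 6 stood apart, with 1.10% of its counts from mitochondrially encoded genes against 3.09% to 4.21% in the other vehicle libraries. Without that library the calls of the 10 genes were unchanged in each comparison it enters.

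Pecam1, Cdh5, Eng and Vwf were higher in vehicle-treated obstructed kidneys than in healthy kidneys, and Esam was lower. Tie1, Egfl7, Emcn, Plvap and Ehd3 did not pass the threshold of an adjusted p of 0.05. In edgeR's quasi-likelihood test with Benjamini-Hochberg adjustment over all tested genes, 5 of the 10 were called, 4 higher and 1 lower. Of all tested genes 64.8% were called, 36.2% higher and 28.6% lower, so the share called among the 10 is not above that of the kidney's genes at large. The log2 fold changes ran from -0.34 to 1.10 with a median of 0.35, against 0.09 over all tested genes. The sign of each of the 10 was kept in every alternative fit, all of which scale the libraries by their composition. On unscaled library totals every gene would shift by 0.43 on the log2 scale towards vehicle, and Esam, Emcn and Ehd3 would then have higher means in vehicle than in healthy kidneys (Esam 40.0 against 37.9, Emcn 65.2 against 58.0 and Ehd3 33.4 against 29.4 CPM). With zalfermin against vehicle 0 of the 10 were called, where 1.81% of all tested genes were.

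**Figure D1:**
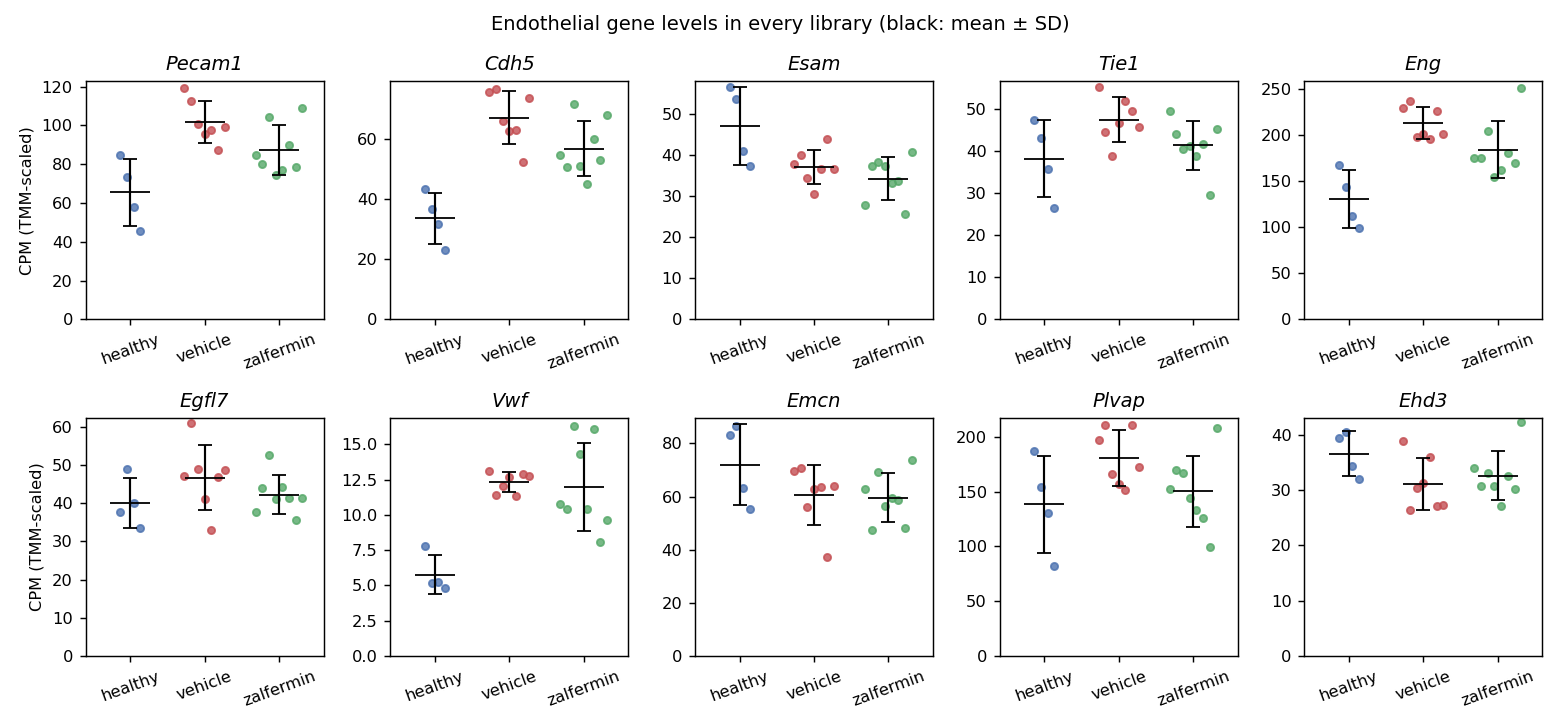
Level of each of the 10 genes in CPM (vertical axis, linear, from 0) in every library, by group (4 healthy in blue, 7 vehicle in red, 8 zalfermin in green), with the black bars giving mean ± SD. Cdh5 and Vwf show no overlap between healthy and either obstructed group, whereas the points of Emcn, Ehd3, Egfl7 and Tie1 overlap in all 3 groups.

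The first group of genes encodes proteins of the contacts between endothelial cells. Pecam1 (ENSMUSG00000020717, GRCm38 chromosome 11, 106654217 to 106750628, minus strand) encodes CD31, an adhesion molecule of the cell border that is also carried by platelets and some leukocytes. It was at 84.7, 73.4, 58.2 and 45.7 CPM in healthy replicates 1 to 4, at 87.1 to 119 CPM with a median of 99.0 in vehicle, and at 74.5 to 109 CPM with a median of 82.3 in zalfermin libraries. Every vehicle library lay above every healthy library, and the zalfermin libraries overlapped both groups. Pecam1 rose with obstruction from 65.5 ± 17.1 to 102 ± 10.8 CPM (log2 fold change 0.63, SE 0.14, edgeR adjusted p = 0.000400).

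Cdh5 (ENSMUSG00000031871, chromosome 8, 104101625 to 104144511, plus strand) encodes VE-cadherin, the cadherin of the endothelial adherens junction and among the most restricted of endothelial genes. Its levels in the 4 healthy libraries were 43.3, 36.8, 31.9 and 23.1 CPM. Vehicle libraries held 52.3 to 76.8 CPM (median 66.0) and zalfermin libraries 45.0 to 71.8 CPM (median 54.1). All 15 obstructed libraries lay above all 4 healthy ones. The mean went from 33.8 ± 8.52 in healthy to 67.3 ± 8.87 CPM in vehicle kidneys, a 1.99-fold rise with a 95% interval of 1.61 to 2.47 (log2 0.99, edgeR adjusted p = 4.66e-06).

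Esam (ENSMUSG00000001946, chromosome 9, 37528078 to 37538319, plus strand) encodes an adhesion molecule of the endothelial tight junction. It stood at 56.5, 53.6, 40.9 and 37.3 CPM in the healthy libraries, at 30.5 to 43.9 CPM (median 36.6) in vehicle and at 25.6 to 40.7 CPM (median 35.6) in zalfermin libraries. The groups overlapped, and healthy replicates 1 and 2 lay above every obstructed library. Esam fell with obstruction by 0.34 on the log2 scale, from 47.1 ± 9.40 to 37.1 ± 4.20 CPM (edgeR adjusted p = 0.0247). This call did not hold with upper-quartile scaling (adjusted p = 0.0631), nor without healthy replicate 1 (0.132), healthy replicate 2 (0.104) or vehicle replicate 4 (0.0507). Esam thus moved the opposite way to Pecam1 and Cdh5 with each scaling used in the fits, and on unscaled totals it was 37.9 in healthy and 40.0 CPM in vehicle kidneys.

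Eng and Tie1 encode receptors of the endothelial surface. Eng (ENSMUSG00000026814, chromosome 2, 32646595 to 32682669, plus strand) encodes endoglin, a co-receptor for BMP9 and BMP10 that acts with the kinase ALK1 and is also found on some stromal cells and macrophages. Eng was at 168, 144, 112 and 98.8 CPM in healthy replicates 1 to 4, at 196 to 237 CPM (median 201) in vehicle and at 155 to 251 CPM (median 175) in zalfermin libraries. The vehicle range lay wholly above the healthy one, and the zalfermin range reached into both. Eng rose from 130.5 ± 31.1 to 212 ± 17.4 CPM, 1.63-fold with a 95% interval of 1.34 to 1.98 (edgeR adjusted p = 9.13e-05). It shares 61 exon bases with Fpgs on the opposite strand, and the sources used here do not say how the counting treated strand.

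Tie1 (ENSMUSG00000033191, chromosome 4, 118471191 to 118490061, minus strand) encodes the orphan partner of the angiopoietin receptor TIE2. Its healthy levels were 47.5, 43.2, 35.7 and 26.6 CPM, against 38.8 to 55.3 CPM (median 46.7) in vehicle and 29.5 to 49.6 CPM (median 41.6) in zalfermin libraries. The 3 ranges overlapped. The vehicle mean was 47.5 ± 5.37 and the healthy mean 38.3 ± 9.17 CPM, a log2 difference of 0.31 with a 95% interval of 0.03 to 0.60 (edgeR adjusted p = 0.0516). That value passed the threshold with upper-quartile scaling (adjusted p = 0.0302), with voom (0.0361) and without healthy replicate 1 (0.0135), healthy replicate 2 (0.0393) or vehicle replicate 3 (0.0298).

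Vwf and Egfl7 encode secreted products of endothelium. Vwf (ENSMUSG00000001930, chromosome 6, 125546774 to 125686679, plus strand) encodes von Willebrand factor, the platelet-binding glycoprotein that endothelial cells store in Weibel-Palade bodies, more in larger vessels than in capillaries. It had the fewest counts of the 10 genes, at 7.83, 5.15, 5.23 and 4.81 CPM in healthy replicates 1 to 4. Vehicle libraries held 11.3 to 13.1 CPM (median 12.7) and zalfermin libraries 8.04 to 16.3 CPM (median 10.6). All 15 obstructed libraries lay above all 4 healthy ones, although the lowest zalfermin library, at 8.04 CPM, was close to healthy replicate 1. Vwf rose 2.14-fold in vehicle kidneys with a 95% interval of 1.64 to 2.79 (log2 1.10, edgeR adjusted p = 2.10e-05), the largest fold change of the 10. Its vehicle libraries were the closest to each other of any of the 10 genes, with an SD of 5.83% of the mean, while the zalfermin SD was 26.0% of the mean.

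Egfl7 (ENSMUSG00000026921, chromosome 2, 26580014 to 26593120, plus strand) encodes a secreted EGF-like protein of developing and remodelling vessels, and the gene hosts an endothelial miRNA, whose entry Mir126a is listed with 0 counts. Egfl7 was at 37.5, 49.0, 40.0 and 33.6 CPM in healthy libraries, at 33.1 to 60.9 CPM (median 47.1) in vehicle and at 35.5 to 52.6 CPM (median 41.4) in zalfermin libraries. The vehicle range contained the whole of the healthy and of the zalfermin range. The log2 difference of vehicle from healthy was 0.22 with a 95% interval of -0.05 to 0.49 (edgeR adjusted p = 0.15), and it passed the threshold without healthy replicate 2 (adjusted p = 0.0468) or vehicle replicate 5 (0.0410). Egfl7 shares 64 exon bases with Agpat2 on the opposite strand.

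The last 3 genes are markers of capillary or glomerular endothelium. Emcn (ENSMUSG00000054690, chromosome 3, 137341067 to 137432185, plus strand) encodes endomucin, a sialomucin of capillary and venous endothelium. It was at 83.3, 86.4, 63.1 and 55.4 CPM in healthy replicates 1 to 4, at 37.3 to 70.6 CPM (median 63.6) in vehicle and at 47.5 to 73.8 CPM (median 59.1) in zalfermin libraries. The lowest vehicle value was that of replicate 6, the library with the low mitochondrially encoded share, and the next lowest vehicle value was 56.2 CPM. The log2 difference of vehicle from healthy was -0.25 with a 95% interval of -0.57 to 0.07 (edgeR adjusted p = 0.156).

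Plvap (ENSMUSG00000034845, chromosome 8, 71497765 to 71511752, minus strand) encodes the protein of the diaphragms that span fenestrae and caveolae, which in the adult kidney belong to peritubular capillaries more than to glomerular ones. Its healthy values of 187, 155, 131 and 81.8 CPM spread 2.29-fold, the widest healthy spread of the 10. Vehicle libraries held 151 to 211 CPM (median 173) and zalfermin libraries 99.7 to 208 CPM (median 149). The ranges overlapped, with healthy replicate 4 below every other library. The log2 difference of vehicle from healthy was 0.38 with a 95% interval of 0.00 to 0.76 (edgeR adjusted p = 0.0710), and it passed the threshold with upper-quartile scaling (adjusted p = 0.0477), with voom (0.0431) and without healthy replicate 1 (0.0148).

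Ehd3 (ENSMUSG00000024065, chromosome 17, 73804134 to 73832094, plus strand) encodes a membrane-recycling ATPase of the EHD family. It was at 39.4, 40.5, 34.3 and 32.0 CPM in healthy libraries, at 26.5 to 38.8 CPM (median 30.3) in vehicle and at 27.2 to 42.3 CPM (median 31.6) in zalfermin libraries. It had the narrowest healthy spread of the 10, 1.26-fold between the highest and the lowest library, and all 3 groups overlapped. The log2 difference of vehicle from healthy was -0.24 with a 95% interval of -0.48 to 0.01 (edgeR adjusted p = 0.0847), and it passed the threshold with RLE scaling (adjusted p = 0.0273), with DESeq2 (0.0251) and without vehicle replicate 1 (0.0282).

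The ranges of vehicle and healthy libraries did not overlap for 4 of the 10 genes, Pecam1, Cdh5, Eng and Vwf, all higher. Over all tested genes the ranges were apart in 44.2%, higher in 24.7%, and these 4 of 10 are again not set apart from that background. The 4 healthy libraries differed among themselves: replicate 4 was the lowest healthy library for 10 of 10 genes and replicate 1 the highest for 7. Healthy replicate 4 also had the lowest scaling factor, 0.751, and the highest proximal tubule sum, 49435 CPM; their part in the result was not tested. Without it Pecam1 was 0.50, Cdh5 0.85, Eng 0.59 and Vwf 1.02 higher on the log2 scale and Esam -0.44, all still called (edgeR adjusted p at most 0.00785).

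Markers of other cells moved with the same comparison, in which 36.2% of all tested genes were called higher and 28.6% lower. Of 10 leukocyte genes 9 rose, and their summed level was 157 to 183 CPM in healthy, 846 to 1093 CPM in vehicle and 677 to 1050 CPM in zalfermin libraries. Of 8 mural and mesangial genes 6 rose (248 to 326, 573 to 803 and 539 to 744 CPM), and all 6 fibroblast genes rose (94.8 to 159, 1756 to 3360 and 993 to 1686 CPM). None of these genes was at 0 counts in any group. Of 8 proximal tubule genes 8 fell. The part of these cells in the levels of the 10 genes was not tested. Of the platelet genes, which bear on Vwf and Pecam1, Pf4 rose (0.293 ± 0.263 to 6.93 ± 3.46 CPM) and Ppbp and Itgb3 were also called higher, Itga2b was called lower, and Gp1ba and Gp1bb, which encode the platelet's von Willebrand factor receptor, had 0 counts in vehicle libraries.

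Zalfermin against vehicle in obstructed kidneys asked whether the drug altered these genes. None of the 10 was called, where 1.81% of all tested genes were. Their log2 differences ran from -0.27 for Plvap to 0.07 for Ehd3, 9 of the 10 were negative, and the median was -0.17 against 0.01 over all tested genes. edgeR had 0 of the 10 at an unadjusted p under 0.05, while DESeq2 and voom had 3 each and called 0 after adjustment. In the lists of other cells, edgeR called 0 of 22 leukocyte, mural and platelet genes (7 at an unadjusted p under 0.05), DESeq2 called 1 and voom 3, while edgeR called the fibroblast genes Col1a1 and Col3a1 lower (log2 -0.86 and -0.77), Kap of 8 proximal tubule genes lower and Wt1 of 8 podocyte genes higher. The call of Wt1 was lost in 5 of the settings tried. The part of these other cells in the levels of the 10 genes was not tested. The comparison shares its vehicle libraries with the one above, so a vehicle library that is high raises one difference and lowers the other.

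The individual values show how far apart the zalfermin and vehicle libraries lay. For Cdh5 the means were 56.9 ± 9.14 in zalfermin and 67.3 ± 8.87 CPM in vehicle kidneys, and 2 of 8 zalfermin libraries were above the vehicle median (log2 -0.24, 95% interval -0.48 to 0.00, edgeR adjusted p = 0.329). Cdh5 had the smallest p of the 10. Pecam1 was at 87.3 ± 13 and 102 ± 10.8 CPM, with 2 of 8 above the vehicle median (log2 -0.22, -0.45 to 0.01, edgeR adjusted p = 0.354). Eng was at 184 ± 30.8 and 212 ± 17.4 CPM (log2 -0.21, -0.43 to 0.01, edgeR adjusted p = 0.363).

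The intervals limit the size of any effect, given the spread among these libraries and the TMM scaling. Over the 10 genes the 95% bounds ran from 0.671-fold to 1.21-fold, and they are pointwise and not adjusted for the number of genes. Plvap had the widest, from 150.2 ± 32.7 in zalfermin against 181 ± 25.3 CPM in vehicle kidneys (0.831-fold, 0.671 to 1.03, edgeR adjusted p = 0.404), and 1 of 8 zalfermin libraries lay above its vehicle median. Tie1 differed by -0.20 (-0.43 to 0.03), Egfl7 by -0.14 (-0.37 to 0.08) and Esam by -0.12 (-0.34 to 0.11) on the log2 scale. Vwf differed by -0.04 (-0.33 to 0.25) and Emcn by -0.03 (-0.29 to 0.24), and the sign of both depended on which library was left out. Ehd3, at 32.6 ± 4.44 against 31.0 ± 4.74 CPM, had a difference of 0.07 (-0.13 to 0.27) and was the only positive one. Leaving out any of the 15 obstructed libraries brought 0 of the 10 genes to a call. The zalfermin and vehicle ranges overlapped for all 10, and over all tested genes they were apart in 0.605%.

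**Figure D2:**
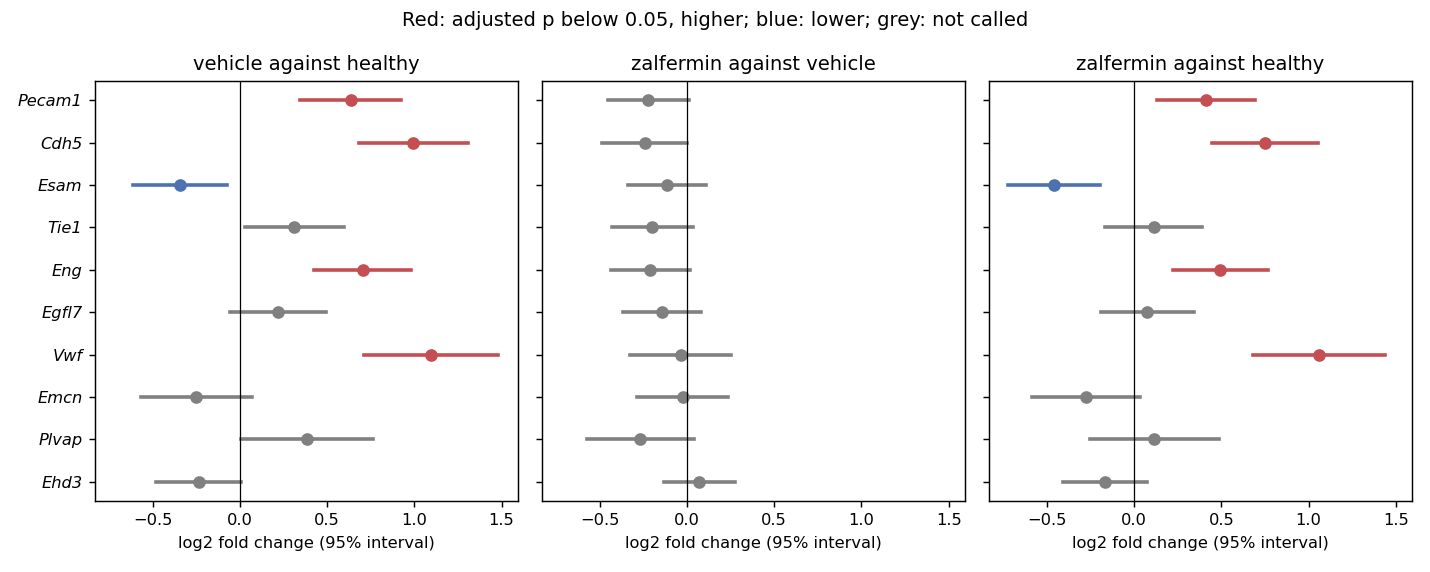
Fitted log2 fold change (points) with 95% interval (bars) of each gene in the 3 comparisons, with red for genes called higher and blue for genes called lower at an adjusted p of 0.05 and grey for the rest. Pecam1, Cdh5, Eng and Vwf lie to the right of 0 and Esam to the left in both comparisons with healthy kidneys, and every interval of zalfermin against vehicle reaches or crosses 0. The fits use TMM scaling, and on unscaled totals the mean of Esam turns to higher in vehicle than in healthy kidneys.

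Zalfermin-treated obstructed kidneys were also set against healthy kidneys, and this comparison shares its healthy libraries with the first. Of the 10 genes 5 were called, 4 higher and 1 lower, where 64.3% of all tested genes were, 37.3% higher and 27.0% lower. Vwf was 1.06 higher on the log2 scale in zalfermin than in healthy kidneys (1.10 in vehicle), Cdh5 0.75 (0.99), Eng 0.49 (0.70), Pecam1 0.41 (0.63) and Esam -0.46 (-0.34), with edgeR adjusted p-values of 2.65e-05, 0.000109, 0.00233, 0.0110 and 0.00307. Ranges were apart for Cdh5 and Vwf, both higher, where 51.2% of all tested genes had ranges apart and 29.4% were higher without overlap. Without healthy replicate 4 Pecam1 was no longer called (adjusted p = 0.0732), and Emcn, -0.27 in the main test (adjusted p = 0.110), was called lower without that library (adjusted p = 0.0411).

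Levels of different genes can be set side by side only per length. Per kilobase of annotated exon, Plvap was the highest of the 10 in healthy kidneys at 69.8 ± 22.3 CPM per kb and Eng second at 32.2 ± 7.68. Esam followed at 16.4 ± 3.28, then Emcn at 13.3 ± 2.80, Egfl7 at 11.2 ± 1.83, Pecam1 at 10.5 ± 2.75, Cdh5 at 8.03 ± 2.03, Tie1 at 7.78 ± 1.86, Ehd3 at 5.57 ± 0.617 and Vwf at 0.358 ± 0.0868 CPM per kb. Among neighbours in this order, the ranges were apart only between Eng and Esam and between Ehd3 and Vwf. In vehicle kidneys the order was Plvap, Eng, Pecam1, Cdh5, Egfl7, Esam, Emcn, Tie1, Ehd3 and Vwf. Plvap (91.0 ± 12.7) was then apart from Eng (52.5 ± 4.30), Eng from Pecam1 (16.3 ± 1.74), Tie1 (9.67 ± 1.09) from Ehd3 (4.73 ± 0.722) and Ehd3 from Vwf (0.767 ± 0.0447 CPM per kb). Pecam1 and Cdh5 held ranks 3 and 4 in both obstructed groups, and Esam had rank 3 in healthy kidneys, 6 with vehicle and 5 with zalfermin.

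Each gene was also related to Cdh5 within the same library, as counts of Cdh5 per count of the other gene. Such a ratio does not depend on the library scaling. Cdh5 was taken as the reference, and the ratios described, after the values were seen. Cdh5 per Pecam1 was 0.512, 0.501, 0.548 and 0.505 in healthy replicates 1 to 4, so that it varied 1.09-fold although the Cdh5 level itself varied 1.88-fold over the same libraries. In vehicle libraries it was 0.601 to 0.747 (median 0.657) and in zalfermin libraries 0.586 to 0.688 (median 0.660). All obstructed libraries held more Cdh5 per Pecam1 than any healthy library.

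Cdh5 per Tie1 was similarly tight in healthy libraries, 0.850 to 0.912, and lay between 1.06 and 1.72 in vehicle and between 1.11 and 1.80 in zalfermin libraries. For Esam the ratio lay between 0.618 and 0.779 in healthy libraries, between 1.19 and 2.06 with vehicle and between 1.36 and 2.08 with zalfermin, so its geometric mean was 2.55 times as high in vehicle as in healthy kidneys. For Emcn the mean ratio was 0.467 ± 0.0533 in healthy libraries, 1.13 ± 0.139 with vehicle and 0.962 ± 0.117 with zalfermin. For Ehd3, the glomerular gene, it was 0.914 ± 0.155, 2.21 ± 0.433 and 1.75 ± 0.186. Healthy and vehicle ranges did not overlap for Pecam1, Esam, Tie1, Emcn and Ehd3, whereas those for Eng, Egfl7, Vwf and Plvap did.

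**Figure D3:**
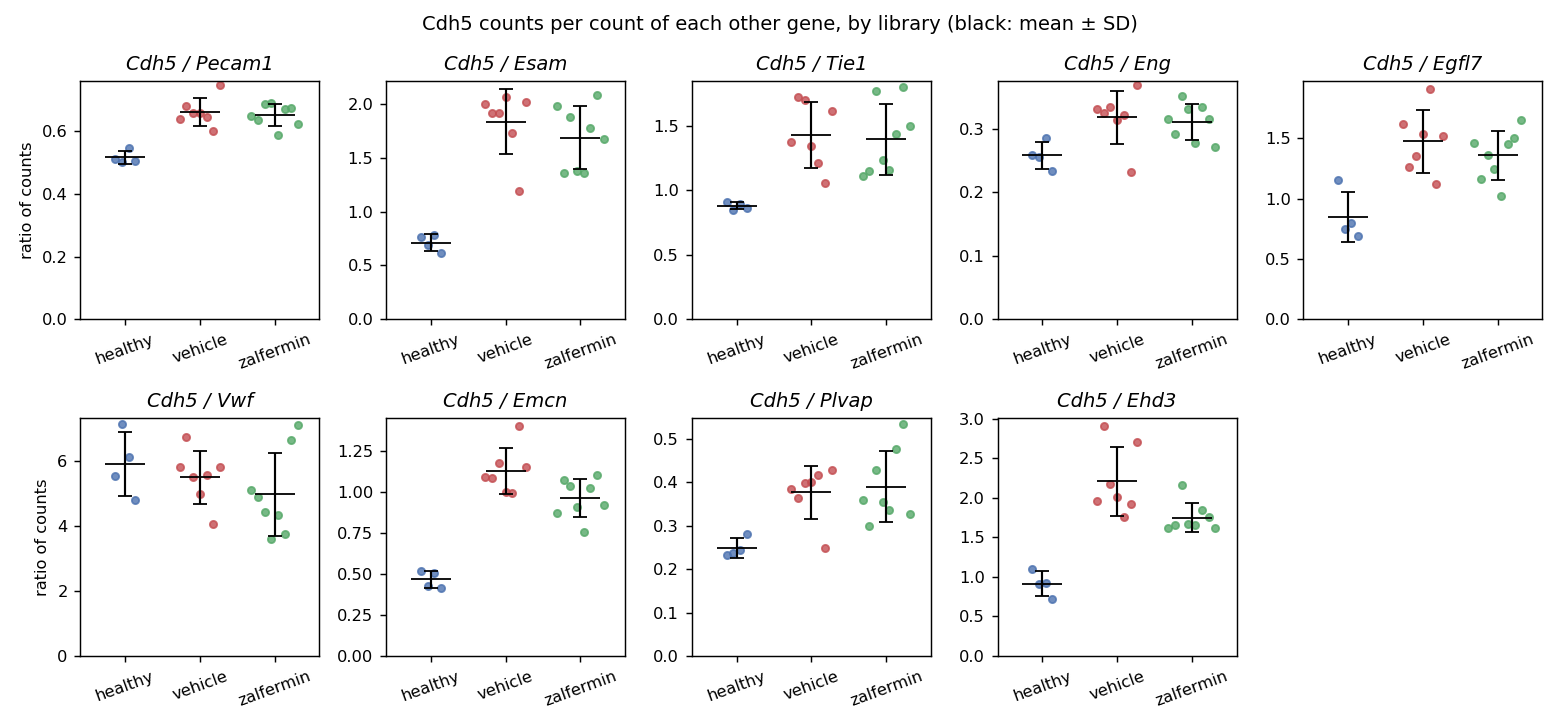
Counts of Cdh5 per count of each of the other 9 genes (vertical axis, linear, from 0) in every library, by group, with the black bars giving mean ± SD. The healthy points of Pecam1, Tie1, Esam, Emcn and Ehd3 lie below all vehicle and zalfermin points, while those of Vwf overlap in all groups.

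Over all 45 pairs of the 10 genes, 21 had ratios whose vehicle and healthy ranges were apart, 46.7%. Over all 128408325 pairs of tested genes it was 46.3%, computed on log2 CPM with a prior count of 2, so the 10 genes diverged from each other as often as pairs at large. Between zalfermin and vehicle 0 of the 45 pairs were apart, where 0.617% of all pairs were, and between zalfermin and healthy 21 were, where 51.6% of all pairs were.

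For each of the 10 genes the tested gene whose profile over the 19 libraries was closest was found by the root-mean-square difference of log2 CPM, each gene centred on its own mean, among genes with at least 5 CPM on average. Eng and Pecam1 were each other's nearest of 11688 candidates, at 0.10. Cdh5 was nearest to Elk3 (0.14) and had Pecam1 at rank 3 (0.16), Tie1 was nearest to Mmrn2 (0.16), and Plvap to Lmtk3 (0.19) with Tie1 second (0.20). Ehd3 was nearest to Ptk2 (0.13), Esam to Ak1 (0.15), Egfl7 to Nbdy (0.15), Emcn to Atp1b3 (0.15) and Vwf to Mapk7 (0.19). For these genes and Tie1 the closest member of the 10 stood further down. Its rank was 20 for Tie1, 66 for Emcn, 276 for Vwf, 672 for Ehd3, 929 for Esam and 2216 for Egfl7. These profiles share the difference between healthy and obstructed groups and are a description only.

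Promoter sequence was looked up in RefSeq (GRCm38.p6) for the stretch before each RefSeq start, and 5 of the 10 genes had an entry. A RefSeq start can lie inside the annotated gene. Of the 250 bases per window, 0 of each Egfl7 window, 0 of Ehd3 and 38 of Tie1 lay before the first annotated exon. For Eng, which rose, and Emcn, which was not called and had the opposite sign, the bases of the window before the first annotated exon, all 250 for Eng and 239 of 250 for Emcn, are shown 5′ to 3′ on the plus strand as an example of each. Capitals mark the hexamer AGGAAG on either strand (CTTCCT when read on the other), a form of the core that ETS-family factors, known regulators of endothelial genes, bind.
Eng, chr2:32646345-32646594: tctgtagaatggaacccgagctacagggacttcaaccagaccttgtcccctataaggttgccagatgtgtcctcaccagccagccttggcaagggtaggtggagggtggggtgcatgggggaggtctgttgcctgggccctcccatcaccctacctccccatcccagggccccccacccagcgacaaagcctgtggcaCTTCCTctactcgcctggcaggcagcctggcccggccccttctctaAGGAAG
Emcn, chr3:137340828-137341066: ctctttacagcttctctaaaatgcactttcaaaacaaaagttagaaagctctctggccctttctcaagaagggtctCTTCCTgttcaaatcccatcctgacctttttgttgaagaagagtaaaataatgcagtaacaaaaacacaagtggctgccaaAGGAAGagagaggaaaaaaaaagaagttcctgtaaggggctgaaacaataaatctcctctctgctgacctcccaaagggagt
Each of the 2 stretches held 2 copies, 1 on each strand. The 5 genes with an entry had 7 windows of 250 bases, since Egfl7 has 3, and 5 of the 7 held at least 1 copy, while 29.5% of the 32851 windows of all genes did. The Egfl7 windows held 3, 1 and 0 copies, Tie1 held 1 and Ehd3 held 0, all wholly or mostly inside the annotated gene. With so few windows, 3 of them from 1 gene, nothing is concluded from these shares. The motif was picked after the expression values were seen, and a match is a description of the letters, not a bound site.

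Other endothelial genes were listed by the kind of vessel or pathway they mark. The counts of each list stand beside the shares over all tested genes. With obstruction 64.8% of these were called, 36.2% higher and 28.6% lower, and with zalfermin 1.81% were called. No list was tested against these shares. Of 22 other pan-endothelial genes 10 rose with obstruction and 2 fell, with the call of Nos3, one of the 10, lost in 7 of the settings tried. Cd93, a lectin-like receptor of endothelium and myeloid cells, rose from 22 ± 5.01 to 68.0 ± 10.9 CPM (log2 1.63), and Ecscr, an endothelial surface regulator of migration, from 5.0 ± 1.72 to 20.8 ± 3.82 CPM (log2 2.04). Kdr, the main VEGF receptor, fell from 81.9 ± 15.4 to 54.4 ± 9.03 CPM (log2 -0.59), as did the transcription factor gene Sox17, named here after its value was seen. With zalfermin 0 of the 22 were called by edgeR (1 at an unadjusted p under 0.05) or DESeq2 (2), and voom called 1, Fli1, with 7 at an unadjusted p under 0.05. Ecscr had the smallest p with edgeR (log2 -0.32, adjusted p = 0.274). The median of the 22 was 0.29 with obstruction and -0.12 with zalfermin, beside 0.35 and -0.17 for the 10 genes.

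Of 8 other glomerular endothelial genes 1 rose and 3 fell. Plat, which encodes tissue plasminogen activator, rose from 50.9 ± 9.31 to 214 ± 24.0 CPM (log2 2.07, edgeR adjusted p = 1.53e-12). Mapt, which encodes the microtubule protein tau, fell from 248 ± 25.0 to 109 ± 11.9 CPM. Lpl, which encodes lipoprotein lipase and is also made outside endothelium, fell from 1258 ± 684 to 328 ± 92.1 CPM with obstruction and again to 162 ± 28.7 CPM with zalfermin (log2 -1.02, edgeR adjusted p = 0.00757). Sost, which also fell, had 65 counts over the healthy and 11 over the vehicle libraries. Among the podocyte genes, which mark the other side of the glomerular filter, 3 of 8 rose, with Synpo going from 66.9 ± 9.73 to 108 ± 8.35 CPM. Nphs1 was called lower, though not once healthy replicate 4 was left out (adjusted p = 0.0707).

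Of 8 capillary genes 2 rose and 1 fell. Aplnr, the apelin receptor of sprouting endothelium, rose from 5.86 ± 0.609 to 31.0 ± 2.65 CPM in vehicle kidneys (log2 2.40) and was at 19.4 ± 4.10 CPM with zalfermin. That fall of 0.68 on the log2 scale against vehicle was called (edgeR adjusted p = 0.00255). Cd36, a fatty acid carrier of capillaries and tubules, fell with obstruction from 875 ± 269 to 279 ± 84.7 CPM and was not called with zalfermin (log2 -0.40, edgeR adjusted p = 0.227). Cav2, a caveolin, was 0.43 higher with zalfermin without a call (edgeR adjusted p = 0.131), and it was called with voom (adjusted p = 0.0217) and without vehicle replicate 6 (0.0363).

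Of 8 arterial genes 5 rose and 1 fell: the Notch ligand Dll4 rose from 9.31 ± 0.833 to 21 ± 2.85 CPM and the ephrin Efnb2 from 22.3 ± 6.53 to 47.8 ± 6.48 CPM, while the fall of Sema3g (log2 -0.22) and the rise of Hey1 (log2 0.75) each lost their call in 9 of the settings tried. Of 3 tested venous genes 2 rose, with Ephb4, the receptor of ephrin-B2, going from 68.4 ± 10.4 to 98.3 ± 10.3 CPM, and with Selp, the P-selectin stored beside von Willebrand factor, at 4 counts over the healthy and 264 over the vehicle libraries. Of 6 tested lymphatic genes 3 rose and 2 fell, with Pdpn at log2 2.16 and Prox1 at -1.80, and both are also expressed by kidney epithelium or podocytes. The call of Lyve1, which rose, was lost in 4 of the settings tried. Of 10 tested activation genes 7 rose and 1, Angpt2, fell, led among those that rose by the leukocyte adhesion molecules Vcam1 (11.4 ± 2.03 to 581 ± 126 CPM) and Icam1 (25.7 ± 1.90 to 154 ± 11.2 CPM), which injured tubules and leukocytes make as well. With zalfermin edgeR called 0 of these 26 distinct arterial, venous, lymphatic and activation genes, with 2 at an unadjusted p under 0.05, DESeq2 called 0 (3 unadjusted), and voom called 1, Thbd (4 unadjusted).

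**Figure D4:**
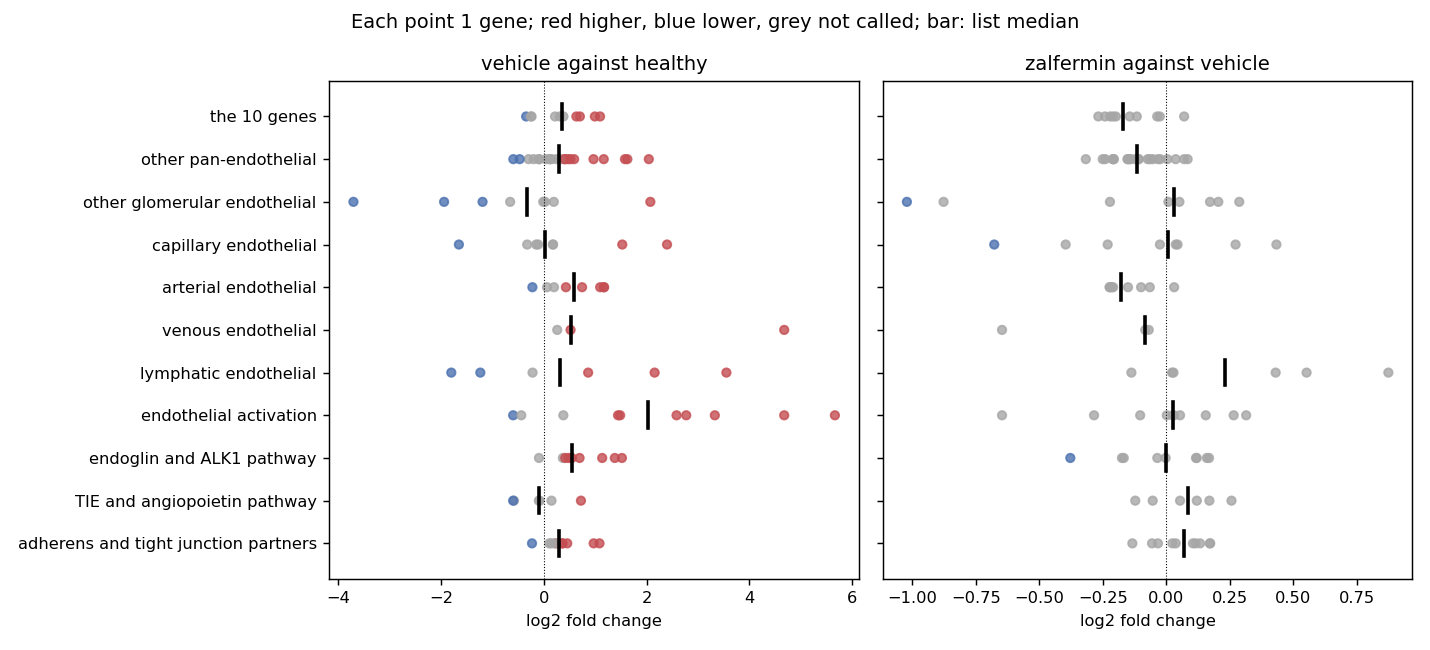
Fitted log2 fold change of each tested gene (points) in the 10 genes and in 10 lists of related endothelial genes, for vehicle against healthy and zalfermin against vehicle, with red for called higher, blue for called lower, grey for not called and a black bar at each list's median. The 2 panels have different horizontal scales, the point of Selp (venous and activation lists) rests on 4 healthy counts, and the called points on the right are Lpl, Aplnr and Acvrl1.

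The partners of the 10 genes were described the same way, and their counts stand beside the same shares over all tested genes. Endoglin acts with ALK1, encoded by Acvrl1, and SMAD1 and SMAD5. Of 9 tested genes of this pathway 7 rose with obstruction: Acvrl1 from 17.9 ± 4.04 to 39.4 ± 2.99 CPM (log2 1.14) and Smad1 from 13.7 ± 1.68 to 35.8 ± 4.86 CPM (log2 1.38). Acvrl1 was the 1 gene of the pathway called with zalfermin, lower at 30.3 ± 2.23 CPM (log2 -0.38, edgeR adjusted p = 0.0237), a call lost without vehicle replicate 1 (adjusted p = 0.0509) or vehicle replicate 7 (0.0505). Eng itself differed by -0.21 in that comparison and was not called. The ligand genes Gdf2 and Bmp10, which encode BMP9 and BMP10, had at most 3 counts over any group.

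Of 6 genes of the TIE and angiopoietin system around Tie1, 1 was called higher with obstruction, Angptl2 (37.1 ± 4.98 to 61.2 ± 7.89 CPM), and 1 lower, Angpt2, the antagonist ligand of TIE2 (29.0 ± 11.4 to 19.3 ± 5.31 CPM, edgeR adjusted p = 0.0407). The Angpt2 call was lost in 8 of the settings tried, with an adjusted p of 0.244 without healthy replicate 1. Tek, which encodes TIE2, was at 44.0 ± 13.9 and 41.3 ± 6.74 CPM (log2 -0.09, edgeR adjusted p = 0.647). Of 10 junction partners 6 rose, among them Jam2 (11.8 ± 4.13 to 25.1 ± 4.24 CPM) and F11r (114 ± 5.37 to 156 ± 9.95 CPM), and Jam3 was called lower (log2 -0.23) but not in 8 of the settings tried; most of these genes are expressed by epithelium too. With zalfermin 0 of these 16 genes were called by edgeR (1 at an unadjusted p under 0.05), DESeq2 (2) or voom (4).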

How the data were processed

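RNA from kidney was sequenced in 19 libraries made with a directional NEBNext kit, per the labels' protocols. Per the submitters' processing notes, STAR 2.7.0f and GRCm38 were used. The authors deposited whole-number read counts for each gene, which carry no scaling. The sources used here do not name the program that counted the reads, how it treated strand, its gene models or a filter. Groups came from the treatment label. Coordinates and exon lengths are those of GENCODE M21 on GRCm38, which holds 55450 of the 55536 gene identifiers.

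The filter on low counts was filterByExpr of edgeR at a count of 10 and a total of 15, and 16026 genes passed it. The 39510 others, 24313 of them with no count, held 0.115% of the counts. One quasi-likelihood model with TMM scaling was fitted to all libraries (edgeR 4.0.16, R 4.3.3) and its F test is two-sided. P-values were adjusted by Benjamini-Hochberg across the 16026 genes, and a gene is called below 0.05. Each library was counted as a sample. Libraries of the same group always differed by more than sampling noise (lowest chi-square 5.89 per degree of freedom). Repeat libraries of the same kidney could differ so too, and this does not show that each came from its own animal. The 10 genes and the 16 gene lists (138 genes) were chosen with earlier results of these data known. The text names the 10 genes, the genes nearest to them, and in each list the 2 genes with the smallest p in each of the obstruction and zalfermin comparisons and the called gene with the smallest p against the majority. Sox17, Sost, Hey1, Nos3, Lyve1, Ppbp, Itgb3, Nphs1, Fli1, Tek, Gp1ba, Gp1bb, Gdf2 and Bmp10 were named for their counts or calls after their values were seen, where the rule did not name them. Of the genes that this rule selects, not every one is reported here. The alternatives were DESeq2 1.42.0, limma 3.58.1 (voom, sample quality weights), RLE or upper-quartile factors, no filter, 1 CPM in 10 libraries, a robust fit, a fit of the 2 groups compared, and each library left out. The test was tried first on simulated data with few changed genes, as many raised as lowered. That trial does not bear on the scaling between healthy and obstructed libraries, where most genes were called.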

Additional observations from a re-analysis of the deposited data

Results flagged for a closer look

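In 57 groups of values (the levels of the 10 genes and their ratios to Cdh5, in each group of libraries), 7 had a highest or lowest library set off from the rest by more than Dixon's critical value at 95%, which chance alone gives in about 1 group in 20. Of these, 4 concerned vehicle replicate 6. Its Emcn level was 37.3 CPM, the lowest of the vehicle libraries. Its Cdh5 counts were 1.19 per count of Esam, 0.231 per count of Eng and 0.248 per count of Plvap, each the lowest of the vehicle libraries. The Tie1 level of zalfermin replicate 7 was 29.5 CPM, the lowest with zalfermin, and the Vwf level of healthy replicate 1 was 7.83 CPM, the highest of the healthy libraries. Zalfermin replicate 3 held 2.17 counts of Cdh5 per count of Ehd3, the highest with zalfermin.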

How the results depend on the processing

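No paired analysis was possible because the labels link no library of a group to a library of another. Each title carries a sample number but no replicate number, and the replicate numbers used here are in accession order. The number of the 10 genes called lower in vehicle against healthy kidneys, 1, became 2 with RLE scaling, 0 with upper-quartile scaling and 2 with DESeq2, and 0 to 2 with 1 library left out (0 without healthy replicate 1, healthy replicate 2 or vehicle replicate 4, and 2 without vehicle replicate 1). Those called lower in zalfermin against healthy kidneys, 1, became 2 with RLE scaling, with DESeq2 and in a fit of the 2 groups, and 1 to 2 with 1 library left out (2 without healthy replicate 4). Over all genes, zalfermin against vehicle gave 290 calls, 139 higher and 151 lower; DESeq2 gave 602 (260 and 342) and voom 1148 (502 and 646). Leaving out 1 library gave 153 to 517 calls, 71 to 242 higher and 73 to 275 lower: 179 without vehicle replicate 2, 517 without vehicle replicate 6, 157 without vehicle replicate 7, and 153, 162 and 155 without zalfermin replicates 2, 4 and 5. Of the calls 47.9% were higher, and 35.5% with upper-quartile scaling. In the fits, signs turned only for differences that were not called. With 1 library left out, zalfermin against vehicle ran from -0.11 to 0.030 for Vwf (0.0047 without zalfermin replicate 8) and from -0.13 to 0.016 for Emcn (0.011, 0.015 and 0.013 without vehicle replicates 1 and 2 and zalfermin replicate 7). Zalfermin against healthy ran from -0.025 to 0.23 for Tie1 and from -0.067 to 0.29 for Plvap, below 0 only without healthy replicate 4, and was -0.018 for Egfl7 with RLE scaling and with DESeq2. The cause was not tested. In vehicle against healthy kidneys the adjusted p of Esam, Tie1, Egfl7, Plvap and Ehd3 lay on either side of 0.05 as settings changed, so with 4 healthy libraries these calls are uncertain.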
